A study of Homo sapiens with 2 samples.

Results

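The 8 genes that encode the subunits of the chaperonin TRiC, also called CCT, were analysed in RNA sequencing of THP1 cells treated with bort or left untreated. They were found by symbol (TCP1, CCT2, CCT3, CCT4, CCT5, CCT6A, CCT7 and CCT8), and all 8 were among the 10987 genes of the deposited table. The genes are unlinked apart from CCT4 and CCT7 on chromosome 2, with TCP1 on chromosome 6, CCT2 on 12, CCT3 on 1, CCT5 on 5, CCT6A on 7 and CCT8 on 21. THP1 was established from a patient with acute monocytic leukaemia, and bort is bortezomib, a drug that blocks the proteasome, the protease that degrades ubiquitin-marked proteins. One library was labelled as THP1 treated with bort for 24 h and 1 as untreated THP1. The dose given to the sequenced cells, and whether the untreated cells received the solvent, are not given in the sources used here. With 1 library per group there is no replicate check and no test, so each difference is one between 2 libraries.

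Values are FPKM, in which the fragments of a gene are divided by its length and by the mapped total. This allows levels of genes of different length to be set side by side. The FPKM of the bort-treated library summed to 221529 and those of the untreated library to 210026, and the number of reads behind them is unknown. The markers of the labelled cell type were checked. Of 12 monocytic markers 6 were in the table, with a summed level of 24.8 FPKM in the untreated and 64.4 FPKM in the bort-treated library, and CD14, CSF1R and MPO were not among the genes analysed here. Of 12 erythroid markers 11 were in the table, with summed levels of 3208 and 3101 FPKM. Most of these sums came from HBG1 (1487 and 1536 FPKM) and HBG2 (1069 and 1056 FPKM). In the bort-treated library 5 of the 6 monocytic markers were higher, 2 of them past 2-fold, beside 8.08% of all genes. Among these 6, ITGAM and S100A9 were near the lower end of the table, at 0.234 and 0.101 FPKM in the untreated library. Of the 11 erythroid markers 8 were lower, 4 of them past 2-fold, beside 10.2% of all genes. The other 3, RHAG, TAL1 and HBG1, were higher. Some of these differences were small, at 3.3% for HBG1, -1.2% for HBG2 and -6.6% for ALAS2. None of 5 target genes of MLL fusions, HOXA9 and MEIS1 included, was among the genes analysed (0 of 5). The markers thus do not match the labelled cell type, and the libraries are named here only by their labels. The part of these markers in the results was not tested.

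TRiC is a cytosolic chaperone built of a pair of stacked rings, and each ring holds every one of the subunits once. Unfolded proteins enter its central cavity, and the binding and hydrolysis of ATP by the subunits close a lid under which they fold. Actin and tubulin depend on it, as do many proteins with WD40 repeats. The subunits descend from a common ancestor, and each contacts different parts of a substrate, so that the complex needs all of them.

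To show what the members share and how far their transcripts differ, the coding bases around the ATP-binding motif are given for each gene, 5′ to 3′, from GENCODE 29. Capitals mark the codons of the motif glycine-aspartate-glycine-threonine-threonine, which was found once in each of 7 genes. In CCT8 this motif was not found, and the capitals mark the first 4 of its residues, a search added after that result. 
TCP1: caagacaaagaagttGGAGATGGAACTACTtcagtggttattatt
CCT2: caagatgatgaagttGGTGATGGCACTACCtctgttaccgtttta
CCT3: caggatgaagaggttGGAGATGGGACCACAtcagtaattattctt
CCT4: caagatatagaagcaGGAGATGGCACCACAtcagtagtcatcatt
CCT5: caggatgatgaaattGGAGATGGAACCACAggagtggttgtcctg
CCT6A: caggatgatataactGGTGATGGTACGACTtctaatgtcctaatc
CCT7: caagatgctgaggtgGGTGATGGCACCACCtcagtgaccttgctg
CCT8: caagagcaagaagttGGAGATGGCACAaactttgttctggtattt

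The coding sequences ranged from 531 codons in CCT6A to 556 codons in TCP1. The coding bases of the 28 pairs of subunit genes were aligned from end to end. Identical bases made up between 45.6% and 51.7% of the alignment positions, gaps included, with a median of 47.9%. The printed stretches were found by a search for the motif, so they do not show whether other stretches are as alike. Over the whole coding sequences about every other alignment position held different bases or a gap. Unrelated genes were not aligned for comparison. No stretch of 50 bases was shared between any of the members.

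All 8 genes were abundant in both libraries. In the untreated library they lay between 101.2 FPKM for TCP1 and 216.6 FPKM for CCT7, and in the bort-treated library between 93.2 FPKM for TCP1 and 185.1 FPKM for CCT8. The median level of all genes was 5.85 FPKM in the untreated and 6.02 FPKM in the bort-treated library. The order of the levels in the untreated library was CCT7, CCT8, CCT3, CCT4, CCT5, CCT6A, CCT2 and TCP1. In the bort-treated library it was CCT8, CCT4, CCT5, CCT3, CCT6A, CCT7, CCT2 and TCP1. CCT7 thus went from first to sixth place, whereas CCT2 and TCP1 were the lowest members in both. Because no spread between cultures is available, it cannot be said which neighbours in these orders differ.

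**Figure D1:**
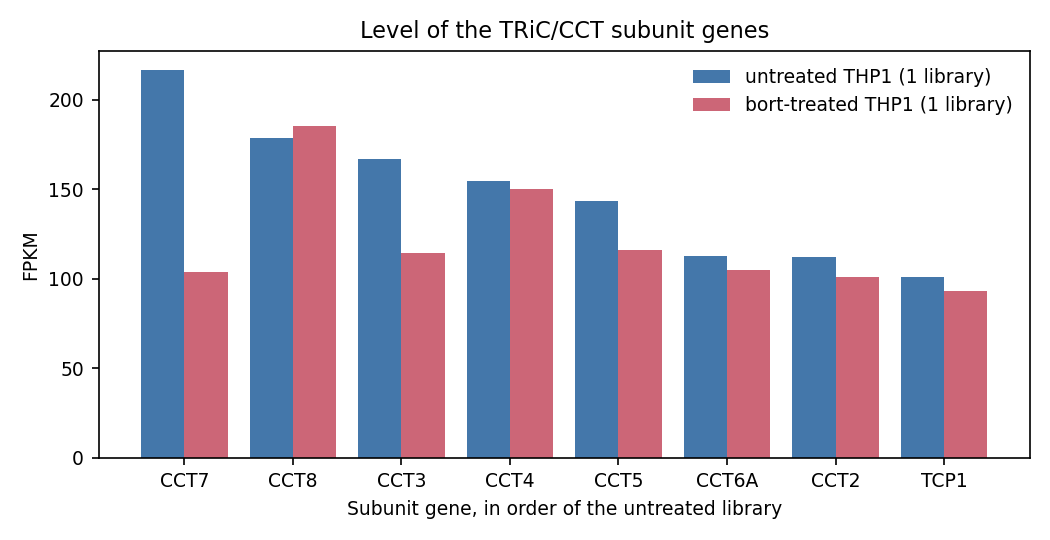
Level of the 8 TRiC/CCT subunit genes in FPKM (y axis, from 0), with the genes in order of the untreated library (x axis); each bar is the value of 1 library, so there are no error bars. CCT7 shows the widest gap between the libraries, from 216.6 to 103.7 FPKM, and CCT4 and CCT8 have bars of nearly equal height.

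CCT7 (ENSG00000135624.15_2), the eta subunit, which lies between CCT5 and CCT8 in the ring, differed most. It was at 216.6 FPKM in the untreated and 103.7 FPKM in the bort-treated library, 2.09-fold lower, with a log2 fold change of -1.05 on the log2(FPKM + 1) scale used throughout. Ranked by level over all genes it stood at 115 in the untreated and at 244 in the bort-treated library. A more negative log2 fold change was found for 1002 of the 10987 genes. CCT7 was the only subunit gene past 2-fold, 1 of 8 lower and 0 of 8 higher, beside 10.2% of all genes lower and 8.08% higher by 2-fold or more. Among the 3933 genes with a mean of at least 10 FPKM these shares were 15.5% and 7.91%, so a count of 1 in 8 is close to the background. CCT7 passed 2-fold by a narrow margin. Its log2 fold change was -0.95 with upper quartile scaling or with totals that leave out the 20 most abundant genes, and -0.94 with the trend with GC content removed, so these settings end the call. In bulk RNA of this kind, a lower number of cells of a type and less RNA per cell cannot be told apart.

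CCT3 (ENSG00000163468.14_2), the gamma subunit, was next, at 167.0 FPKM in the untreated and 114.6 FPKM in the bort-treated library, a change of -31.3% and a log2 fold change of -0.54. This falls short of 1.5-fold, a threshold that CCT7 alone of the 8 genes passed, beside 21.6% of all genes lower and 20.8% higher by 1.5-fold or more. CCT5 (ENSG00000150753.11_3), the epsilon subunit, in which mutations cause a hereditary sensory neuropathy, was at 143.3 and 116.2 FPKM, a log2 fold change of -0.30. These 3 genes had the most negative fold changes. They were lower in the bort-treated library under every setting run. So were TCP1 and CCT2, although TCP1 was at only -0.010 with totals that leave out the 20 most abundant genes.

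The other 5 genes were closer in the 2 libraries. TCP1 (ENSG00000120438.11_3), the alpha subunit and the first of the family to be described, was at 101.2 FPKM untreated and 93.2 FPKM bort-treated, a log2 fold change of -0.12. CCT2 (ENSG00000166226.12_2), the beta subunit, was at 112.4 and 100.7 FPKM, a log2 fold change of -0.16. CCT6A (ENSG00000146731.10_2), the zeta subunit, was at 112.6 and 104.7 FPKM, a log2 fold change of -0.10 that was 0.0030 with upper quartile scaling. The change of CCT2, -10.4%, was the widest among these 5 genes. CCT4 (ENSG00000115484.14_2), the delta subunit, was at 154.6 and 150.3 FPKM, a log2 fold change of -0.04 that was 0.07 with upper quartile scaling. CCT8 (ENSG00000156261.12_3), the theta subunit, was at 178.8 and 185.1 FPKM, the only gene of the 8 with a higher value in the bort-treated library, by 0.05 on the log2 scale, although it was lower, at -0.18, with the GC trend removed. The direction depended on the setting for CCT4, CCT6A and CCT8 and not for TCP1 and CCT2, which were lower under every setting run. The margin was small, however, as with upper quartile scaling TCP1 was at -0.011 and CCT2 at -0.050. With upper quartile scaling or totals without the 20 most abundant genes, CCT4 and CCT6A came out higher as did CCT8, and with the GC trend removed all 8 genes, CCT8 included, came out lower.

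**Figure D2:**
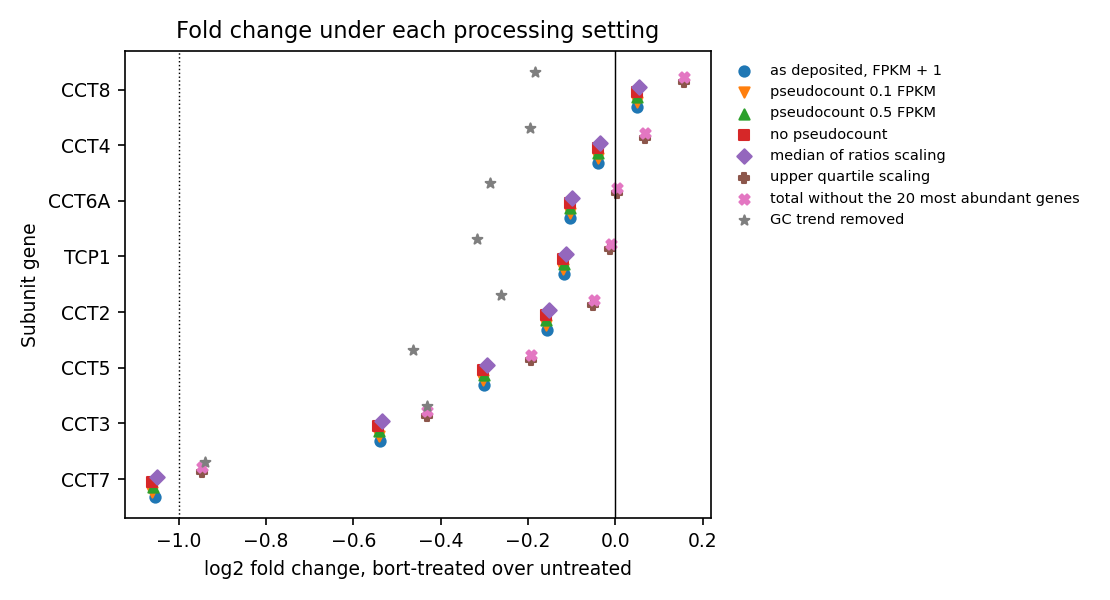
Log2 fold change of each subunit gene, bort-treated over untreated (x axis), under the deposited scale with a pseudocount of 1 FPKM and 7 other settings (symbols); the dotted line marks a 2-fold decrease. CCT7 and CCT3 keep the most negative values in all settings but one, the removal of the GC trend, where CCT5 at -0.46 lies below CCT3 at -0.43, and CCT4, CCT6A and CCT8 lie on both sides of 0.

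The median log2 fold change of the 8 genes was -0.14, beside 0.0049 over all genes and -0.15 over genes with a mean of at least 10 FPKM. The median of the subunit genes was thus close to that of the more abundant genes of the table. Their log2 fold changes had an SD of 0.36 across the 8 genes, and of 0.19 without CCT7. Among the genes with a mean of at least 10 FPKM the SD was 0.90. These are spreads across genes, not across replicates.

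**Figure D3:**
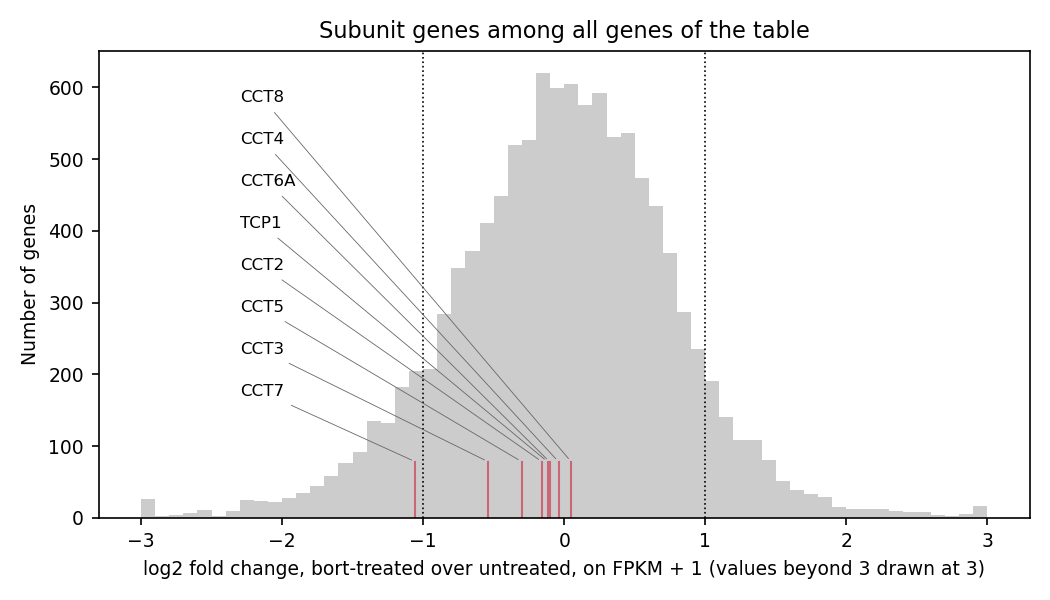
Number of genes (y axis) by log2 fold change, bort-treated over untreated (x axis), for all 10987 genes in grey, with the 8 subunit genes as red lines and 2-fold as dotted lines. CCT7 lies just past the 2-fold line at -1.05, and the other 7 lie between -0.54 and 0.05.

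Because TRiC holds its subunit proteins in equal number, the RNA levels were also compared within each library. There the scaling of the library drops out, although differences by GC content do not. The amounts of the subunit proteins were not measured. The 8 genes summed to 1186 FPKM in the untreated library, 0.565% of all FPKM, and to 968.7 FPKM in the bort-treated library, 0.437%. Of the difference of 217.8 FPKM, CCT7 made up 112.8 FPKM, or 51.8%. CCT7 held 18.3% of the summed FPKM of the 8 genes in the untreated library and 10.7% in the bort-treated library. CCT8 held 15.1% and 19.1%, and CCT4 held 13.0% and 15.5%. CCT3 held 14.1% and 11.8%, whereas the share of CCT5 was 12.1% and 12.0%. Relative to the median of the 8 genes, CCT7 was at 1.45 in the untreated and 0.946 in the bort-treated library. CCT8 was above this median in both libraries, and at 1.69 in the bort-treated library. The ratio of the highest to the lowest member was 2.14 in the untreated and 1.99 in the bort-treated library, and the coefficient of variation across the 8 genes was 26.5% and 25.7%. In the untreated library these values depended on CCT7, whereas the ratio in the bort-treated library did not. Over the other 7 genes the ratio was 1.77 in the untreated and 1.99 in the bort-treated library, and the coefficient of variation was 21.8% and 26.5%.

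To show the region in front of the gene that differed most and of the gene that ended at the top, the bases upstream of CCT7 and CCT8 are given from RefSeq (GRCh38.p14), limited to those outside the exons of GENCODE 29, with matches to 6 searched motifs in capitals. The CCT7 stretch, chr2:73234058-73234235 on the plus strand, held no match. The CCT8 stretch, chr21:29073798-29073898 on the minus strand, held CGCANGCG, the core of the motif of nuclear respiratory factor 1, and GGGCGG, the GC box, on the reverse strand.
CCT7: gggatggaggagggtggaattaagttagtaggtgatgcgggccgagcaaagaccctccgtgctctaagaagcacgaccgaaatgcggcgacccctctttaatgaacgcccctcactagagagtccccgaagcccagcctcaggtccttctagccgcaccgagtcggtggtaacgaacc
CCT8: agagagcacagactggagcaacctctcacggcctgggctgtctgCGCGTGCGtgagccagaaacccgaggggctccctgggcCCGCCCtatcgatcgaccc

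The search used windows of 250 bases before to 50 after each RefSeq start, on both strands, and 7 of the 8 genes matched, with 9 windows. CCT6A had no window and was not searched. The core of the heat shock element, the site of heat shock factors, was searched as GAANNTTC and TTCNNGAA, forms that can overlap. GAANNTTC was found for TCP1 and CCT2, and in 6.79% of 34943 windows of all genes. TTCNNGAA was found for CCT4, and in 7.74% of all windows. CCAAT, the NF-Y box, was found for TCP1, CCT2, CCT3 and CCT8, beside 34.6% of all windows. GGGCGG was found for TCP1, CCT2, CCT3, CCT7 and CCT8, beside 44.9%. CGCANGCG was found for CCT3, CCT5 and CCT8, beside 9.97%, and CCGGAA, the core of ETS factor sites, for CCT2 and CCT5, beside 17.2%. The window of CCT7 held none of these letters other than GGGCGG. These are matches of letters, and whether any factor binds there was not measured.

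Transcripts rich in G and C tended to have more negative log2 fold changes. Spearman's correlation with GC content was -0.49 across 10907 genes, which are not independent and share the 2 libraries. The subunit genes fall into a pair of ranges of GC content. CCT7 (51.3%) and CCT3 (51.2%), the members with the most negative fold changes, have the highest values, and the other 6 lie between 43.1% for CCT8 and 45.9% for CCT2. The median of all genes was 49.1%. With the trend removed, CCT7 was at -0.94 and CCT3 at -0.43, and the other 6 genes lay between -0.46 for CCT5 and -0.18 for CCT8. The median of the 8 genes moved to -0.30, as genes of the low GC content of these 6 tended to be higher in the bort-treated library. CCT7 and CCT3 moved the other way, from -1.05 and -0.54. After this correction 791 of 10907 genes had a more negative value than CCT7.

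Several of the genes have pseudogenes whose reads could be placed on either copy. Of the 50-base windows of the longest coding transcript, 8.59% were found in another gene for CCT8, 7.80% for TCP1, 6.67% for CCT6A and 2.73% for CCT5, all in pseudogenes of the same names or in AC008817.1, none of which is in the table. For CCT2, CCT3, CCT4 and CCT7 the share was 0 of the windows of that transcript. How the reads were placed was not tested. TCP1 overlaps ACAT2 on the opposite strand by 397 exon bases, and CCT4 overlaps COMMD1 by 81 and the antisense gene AC107081.2 by 275. ACAT2 was at 29.7 FPKM untreated and 28.5 FPKM bort-treated, and COMMD1 at 6.15 and 3.57 FPKM. CCT5 shares 1757 exon bases with the antisense gene AC012640.4. Neither antisense gene was analysed here. Whether strand was used in the counting is not given in the sources used here, so these values are uncertain to that extent.

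The genes that work with TRiC were described from lists of related genes. Prefoldin, a smaller complex that carries unfolded actin and tubulin to TRiC, had a median log2 fold change of 0.29 over its 6 genes, of which 1 was higher by 2-fold and none lower (0 of 6), beside 8.08% of all genes higher and 10.2% lower. PFDN4 was at 18.8 FPKM in the untreated and 46.3 FPKM in the bort-treated library, and PFDN5 at 37.1 and 63.7 FPKM, log2 fold changes of 1.26 and 0.76. With the GC trend removed PFDN4 was at 0.64, so that 0 of the 6 genes were past 2-fold. Before that removal VBP1 was at 0.33, PFDN6 at 0.25, PFDN2 at -0.06 and PFDN1 at -0.11. After it VBP1 was at -0.16, PFDN6 at 0.62, PFDN2 at 0.11 and PFDN1 at -0.08. Of the 3 prefoldin-like genes, UXT had a log2 fold change of 0.78 (1.03 with the GC trend removed). That of URI1 was 0.45 and that of PDRG1 -0.23, both without GC removal. Prefoldin and TRiC, which act in sequence, thus had medians on opposite sides of 0, at 0.29 and -0.14. With upper quartile scaling the medians were 0.40 and -0.030, and with the GC trend removed 0.37 and -0.30. The median of genes with a mean of at least 10 FPKM was -0.15, close to that of TRiC. Whether these medians differ was not tested.

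Phosducin-like proteins bind TRiC and assist the folding of G protein beta subunits and cytoskeletal proteins. The 4 phosducin-like genes and PDCD5, which also binds the complex, had a median log2 fold change of 0.21 (-0.12 with the GC trend removed). Past 2-fold in either direction were 0 of 5, beside 8.08% of all genes higher and 10.2% lower. TXNDC9 was at 11.9 and 21.4 FPKM, a log2 fold change of 0.80. PDCL was at 0.32, PDCD5 at 0.21, PDCL2 at 0.02 and PDCL3 at -0.21. PDCL2 was near the lower end of the table in both libraries, at 0.509 and 0.533 FPKM.

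Actin and tubulin genes, which encode the main substrates, had a median of -0.27 over 13 genes (0.023 with the GC trend removed). Past 2-fold were 0 of 13, beside 8.08% of all genes higher and 10.2% lower. With the GC trend removed 3 of the 13 were higher past 2-fold, ACTG1 at 1.23, TUBB2B at 1.11 and TUBB2A at 1.08. Under that setting 755 of 10907 genes were higher past 2-fold. The genes with the most negative values were TUBG1 (50.5 and 29.6 FPKM, -0.75), ACTB (367.3 and 235.1 FPKM, -0.64) and TUBA1A (40.4 and 26.3 FPKM, -0.60). Those with the most positive were ACTG1 (76.5 and 141.2 FPKM, 0.88), TUBB2B (37.7 and 65.8 FPKM, 0.79) and TUBB2A (56.4 and 90.9 FPKM, 0.68). Genes of these families are alike in sequence and have pseudogenes, so the division of reads among them is uncertain. The 5 tubulin folding cofactors, which receive tubulin from TRiC, had a median of 0.12. TBCA was at 0.43, TBCB at 0.12, TBCC at 0.12, TBCE at 0.07 and TBCD at -0.96, from 8.59 to 3.95 FPKM. Of these 5 genes 0 were past 2-fold, beside 8.08% of all genes higher and 10.2% lower. With the GC trend removed the median was 0.022. TBCA was then at -0.31, TBCB at 0.51, TBCC at 0.36 and TBCD at -0.73, and TBCE had no GC value.

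Of 15 other substrates, 13 were lower and 2 higher in the bort-treated library, with a median of -0.45, beside 0.0049 over all genes. Only 1 was past 2-fold in each direction, beside 10.2% of all genes lower and 8.08% higher. MLST8, a WD40 protein of the mTOR complexes, was at 14.6 and 4.68 FPKM, a log2 fold change of -1.46. GNB2, a G protein beta subunit, was at 54.7 and 28.7 FPKM (-0.91), and CDC20, which activates the anaphase-promoting complex, at 148.2 and 91.7 FPKM (-0.69). PPP2R2A, a regulatory subunit of phosphatase 2A, was at 4.68 and 12.6 FPKM, a log2 fold change of 1.26, and GNB5 was at 0.08 and FZR1 at -0.01. With the GC trend removed the median was -0.23 and both calls were lost, with MLST8 at -0.87 and PPP2R2A at 0.78. FZR1 was then higher, at 0.56, so the count of 13 lower did not hold under that setting.

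Other chaperonins and chaperones were set beside TRiC. HSPD1, the chaperonin of mitochondria, was at 244.6 FPKM in the untreated and 241.3 FPKM in the bort-treated library, a log2 fold change of -0.02, and its co-chaperonin HSPE1 was at 60.1 and 73.9 FPKM, 0.29. Of the chaperonin-like genes of the Bardet-Biedl syndrome, BBS12 was at 0.81 and 3.75 FPKM, BBS10 at 1.60 and 4.22 FPKM and MKKS at 4.33 and 5.09 FPKM. BBS12 and BBS10, 2 of these 5 genes, were higher past 2-fold, beside 8.08% of all genes. Their log2 fold changes were 1.39 and 1.00, at levels far below those of the subunits. With the GC trend removed BBS12 was at 1.07 and BBS10 at 0.42, short of 2-fold. CCT6B and CCT8L2, relatives of the TRiC subunits, were not analysed here.

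The heat shock chaperone genes, which heat shock factor 1 activates when unfolded proteins accumulate, were mostly higher in the bort-treated library. Of 10 genes 9 were higher and 4 were higher past 2-fold, beside 8.08% of all genes. The median was 0.66, and 0.45 with the GC trend removed, beside 0.0049 over all genes. HSPA1A was at 290.1 FPKM untreated and 1015 FPKM bort-treated, HSPA1B at 265.3 and 837.9 FPKM, and DNAJB1 at 35.4 and 93.1 FPKM. BAG3, a co-chaperone of HSP70, was the other gene past 2-fold, at 20.2 and 42.7 FPKM. HSPA1A and HSPA1B are nearly identical, so the division of reads between them is uncertain. HSPB1 was the gene with a lower value, at 291.8 and 249.1 FPKM, a log2 fold change of -0.23 that was 0.37 with the GC trend removed. The smallest rises were those of HSPA8, at 532.6 and 539.7 FPKM, and HSP90AB1, at 1542 and 1713 FPKM. Their log2 fold changes were 0.02 and 0.15, and HSPA8 was at -0.05 with the GC trend removed. The difference between this list and the subunit genes was not tested. Of the factors themselves, HSF2 was at 6.19 and 12.2 FPKM, a log2 fold change of 0.88, and HSF1 at 14.6 and 11.8 FPKM, -0.28. With the GC trend removed HSF2 was at 0.51 and HSF1 at 0.29, so the direction for HSF1 depended on the setting.

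Outside the lists, the genes nearest to the medians of the 8 subunit genes in both libraries were HK1, SLC1A5, HMGN2, EIF3K and EIF4H, by the distance of their log2(FPKM + 1) values over the 2 libraries. Their levels lay between 134.8 FPKM for EIF4H and 152.2 FPKM for EIF3K in the untreated library, and between 98.6 FPKM for EIF3K and 106.1 FPKM for HK1 in the bort-treated library. The medians matched were taken in each library separately, at 148.9 FPKM in the untreated and 109.7 FPKM in the bort-treated library. The log2 fold changes of these genes lay between -0.62 for EIF3K and -0.38 for EIF4H. All were more negative than the median log2 fold change of the subunit genes, -0.14. With 2 libraries this likeness says only that the levels were close to these medians, not that the genes changed as the subunit genes did.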

How the data were processed

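RNA sequencing of 1 library per group was analysed. Per the methods of the study, the authors used HISAT2 2.0.4 for mapping and StringTie 1.2.3 for assembling transcripts. The authors deposited FPKM per gene, and the tool that gave them is not given in the sources used here. The submitters' processing notes name GRCh37. The methods describe poly-A selection and a stranded KAPA kit, whereas the labels name a TruSeq kit. The table had 7 blank rows, which were dropped, and 10987 genes. Each gene reached at least 0.501 FPKM in 1 library, and depth is unknown.

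Log2 fold changes were differences of log2(FPKM + 1), bort-treated minus untreated, with a threshold of 2-fold. Adding 1 shrinks the fold change of weakly expressed genes. No p-value was computed, and a gene counts as past a threshold by its size alone. The members and lists were chosen with earlier results of these data known. Named are all 8 subunit genes, all members of lists of up to 6 genes, the 3 largest rises and falls of longer lists, and the 5 genes nearest in level, with at least 10 FPKM in each library. GC content came from the longest protein-coding transcript in GENCODE 29 (10907 genes, 99.3%), and its trend was removed by lowess with a span of 0.3. Alternatives were pseudocounts of 0.1 and 0.5 FPKM and none, 3 other scalings, GC removal, a threshold of 1.5-fold and filters on low FPKM. GENCODE 29 is of another build than the notes name, so it was used only for sequence and overlap. The calculations were tested on simulated data. Python 3.11.15, numpy 2.4.6, pandas 2.3.3, statsmodels 0.14.6, biopython 1.88 and matplotlib 3.10.9 were used.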

Additional observations from a re-analysis of the deposited data

How the results depend on the processing

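No paired analysis was possible because each group has 1 library, so leaving out a library was not possible either. A shift of over 0.1 on the log2 scale, or of over 1.5 times in a count, was taken as a change. The median of ratios changed none of the 22 results. Leaving out CCT7, chosen after the data were examined, gave a median of -0.12 for the subunit genes.

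With upper quartile scaling, which moved the median of all genes by 0.088, the log2 fold changes were -0.011 for TCP1, -0.050 for CCT2, -0.43 for CCT3, 0.067 for CCT4, -0.19 for CCT5, 0.0030 for CCT6A, -0.95 for CCT7 and 0.16 for CCT8, with a median of -0.030 and 0 genes past 2-fold. Medians of the lists were 0.40 for the other chaperonins, 0.40 for prefoldin, 0.56 for prefoldin-like, 0.31 for phosducin-like, -0.16 for actin and tubulin and 0.77 for heat shock chaperone genes. With totals without the 20 most abundant genes, TCP1 was at -0.010, CCT2 at -0.049, CCT3 at -0.43, CCT4 at 0.068, CCT5 at -0.19, CCT6A at 0.0038, CCT7 at -0.95 and CCT8 at 0.16, the median at -0.030 and 0 genes past 2-fold. The list medians were 0.40, 0.40, 0.56, 0.31 and -0.16 in the same order, 0.22 for tubulin cofactors, 0.40 for heat shock factors and 0.77 for heat shock chaperones. The share of higher genes among all past 2-fold was 44.1%, and 53.9%, 54.0% and 53.1% under these scalings and GC removal.

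With the GC trend removed TCP1 was at -0.32, CCT2 at -0.26, CCT3 at -0.43, CCT4 at -0.20, CCT5 at -0.46, CCT6A at -0.29, CCT7 at -0.94 and CCT8 at -0.18, the median at -0.30 and 0 genes past 2-fold. List medians were 0.16 for prefoldin-like, -0.12 for phosducin-like, 0.023 for actin and tubulin, -0.23 for other substrates, 0.40 for heat shock factors and 0.45 for heat shock chaperones. Lower by 2-fold were 0 genes of the lists, beside 666 of 10907 genes. Of the 6 monocytic markers 4 were then higher by 2-fold, beside 755 of 10907 genes. Of the 11 erythroid markers 4 were lower and 1 was higher by 2-fold. The cause of these shifts, beyond the scaling itself, was not tested.

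With pseudocounts of 0.1 FPKM, 0.5 FPKM or none, 2 genes of the 9 other lists were lower by 2-fold in place of 1. Over all genes 1658 of 10987, 1351 of 10987 and 1708 of 10938 were then lower by 2-fold. At 1.5-fold, with the pseudocount of 1 FPKM, 7 genes of the other lists were lower and 16 higher. Of all genes 21.6% were lower and 20.8% higher at that threshold. In the untreated library the ratio of highest to lowest subunit gene was 1.77 without the highest and 1.93 without the lowest. In the bort-treated library these ratios were 1.61 and 1.84. Of genes with a mean of at least 10 FPKM, 15.5% were lower by 2-fold.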
